A study of Homo sapiens with 3 samples.

Results

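ITPR2 and KCNH2 are 2 ion channel genes that were measured here in PLC, an established line of human liver cancer cells. They were chosen by symbol from earlier readings of these same values, in which both were low after HKDC1 knockdown, so the level ratios below are a description and carry no test. They are 2 of the 1089 genes that had RefSeq transcripts on rows of their own and a mean of at least 1 CPM (counts scaled to library size, here with TMM factors) over the 3 libraries. The 3 groups were a library labelled NTC, one labelled shHKDC1 for knockdown of HKDC1, a hexokinase family protein, and one labelled shRBBP5 for knockdown of RBBP5, a core subunit of the H3K4 methyltransferase complexes. All were grown in DMEM with fetal bovine serum, and the study asked whether HKDC1 and RBBP5 regulate gene expression. Each group was 1 library, the labels name no second line or clone, and no difference below has a replicate check. Brackets hold exact 95% intervals for counting error alone.

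ITPR2 encodes an IP3 receptor, a calcium channel of the endoplasmic reticulum. When a hormone receptor activates phospholipase C, the IP3 that is made opens these receptors and stored calcium enters the cytosol, and in hepatocytes this isoform is abundant and concentrated near the bile canaliculus. KCNH2 encodes the hERG potassium channel of the plasma membrane, a voltage-gated channel best known for repolarising the cardiac action potential and also reported in tumour cell lines.

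The table named ITPR2 by 1 row, NM_002223.4, where RefSeq lists 3 NM transcripts, and KCNH2 by 4 rows, NM_000238.4, NM_172056.2, NM_172057.3 and NM_001204798.2, where RefSeq lists 8. The other IP3 receptor genes, ITPR1 and ITPR3, had no rows. Reads of ITPR2 or KCNH2 that were assigned to an anonymous assembled locus are not in these values, and how many there were was not tested. The RefSeq table places the lncRNA ITPR2-AS2 and other noncoding loci inside ITPR2, and LOC124901776 inside KCNH2, all without rows. The strand setting is not given, so reads of an overlapping antisense RNA could not be told apart from reads of the channel.

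The KCNH2 rows differ in the coding sequence they carry, and these letters are shown because the rows moved differently between libraries. NM_000238 is the full-length channel, with 1159 residues. Its longest coding stretch in common with NM_172056 runs for 1819 bases, after which 1081 coding bases follow in the long form and 268 in NM_172056, which ends in a different sequence. NM_172057 starts elsewhere, with 106 coding bases of its own before 2354 bases in common with the long form. The lower-case letters are shared and the capitals mark where the 2 forms of a pair part.
NM_000238, end of the stretch in common with NM_172056: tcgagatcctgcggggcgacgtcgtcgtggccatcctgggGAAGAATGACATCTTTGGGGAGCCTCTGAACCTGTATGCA
NM_172056, end of the stretch in common with NM_000238: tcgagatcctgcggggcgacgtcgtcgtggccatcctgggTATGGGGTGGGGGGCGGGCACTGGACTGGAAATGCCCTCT
NM_000238, start of the stretch in common with NM_172057: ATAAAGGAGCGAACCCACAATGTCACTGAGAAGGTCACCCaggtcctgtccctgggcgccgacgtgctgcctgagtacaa
NM_172057, start of the stretch in common with NM_000238: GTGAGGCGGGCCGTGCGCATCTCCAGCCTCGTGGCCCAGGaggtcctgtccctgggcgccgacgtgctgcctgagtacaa
The 4 stretches were read 5′ to 3′ from GENCODE 29 transcripts on GRCh38 that GENCODE pairs with these accessions, in older versions for NM_000238 and NM_172057. The GENCODE model paired with NM_172056 also begins differently, with 232 coding bases before the shared stretch against 580 in the long form, and whether the row in the table has that start is not known.

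ITPR2 stood at 8.84 CPM [7.98 to 9.76] in NTC, against 2.81 CPM [2.18 to 3.51] in shHKDC1 and 4.27 CPM [3.65 to 4.95] in shRBBP5. KCNH2, summed over its rows, stood at 6.60 CPM [5.86 to 7.40] in NTC, against 1.99 CPM [1.50 to 2.64] in shHKDC1 and 4.13 CPM [3.53 to 4.82] in shRBBP5. For both genes NTC was highest, shRBBP5 intermediate and shHKDC1 lowest, and no counting intervals of neighbouring libraries overlapped. The values rest on about 387, 72 and 170 fragments of ITPR2 and 289, 52 and 165 of KCNH2 in NTC, shHKDC1 and shRBBP5. In bulk RNA, fewer cells that express a gene and less of its RNA per cell cannot be told apart.

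**Figure D1:**
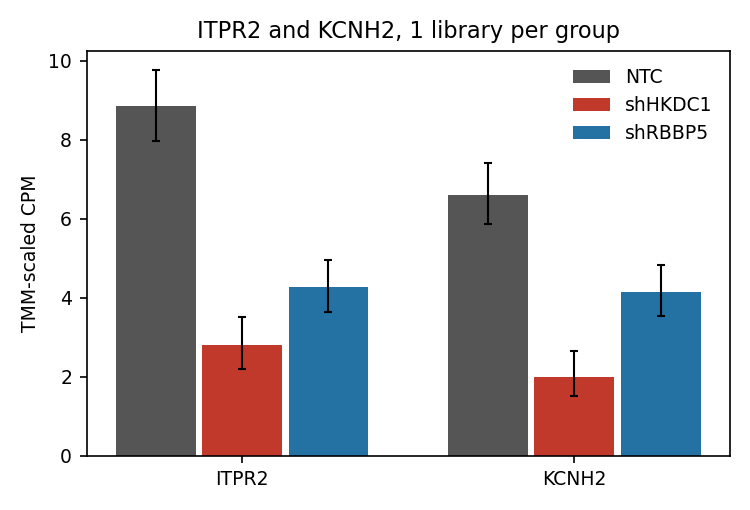
TMM-scaled CPM (vertical axis) of ITPR2 and KCNH2 in the NTC, shHKDC1 and shRBBP5 libraries, with bars for the level and lines for the exact 95% Poisson interval of counting error. Both genes are highest in NTC, at 8.84 and 6.60 CPM, and lowest in shHKDC1, at 2.81 and 1.99 CPM.

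Between genes, levels compare only per transcript length. Per kilobase, the 11405-base ITPR2 transcript was at 0.775 CPM [0.699 to 0.856] in NTC and the 4286-base long form of KCNH2 at 1.15 CPM [1.00 to 1.31]. In shRBBP5 the long KCNH2 form was again above ITPR2, at 0.841 CPM per kilobase [0.710 to 0.992] against 0.374 [0.320 to 0.434]. In shHKDC1 the order of these rows was not resolved. The long form was at 0.210 CPM per kilobase [0.132 to 0.312] there and ITPR2 at 0.246 [0.191 to 0.308]. NM_172056.2, which made up 52.9% of the KCNH2 level in shHKDC1, is left out, so this is no order of the whole genes.

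In shHKDC1 against NTC, ITPR2 was 3.15-fold lower (log2 −1.65 [−2.05 to −1.30]) and KCNH2 3.31-fold lower (log2 −1.72 [−2.17 to −1.28]). Both were called lower, a call being a difference of at least 2-fold whose interval excluded 0. The same call was made for 12.1% of all 13444 measured features and for 23.4% of the 1089 genes with rows, and since the genes were chosen on this difference nothing is read from their count. The median log2 ratio was −0.03 over all features and −0.40 over genes with rows. With total-count scaling, which put the median over features at −0.31, ITPR2 was at −1.93 and KCNH2 at −2.00.

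In shRBBP5 against NTC, ITPR2 was 2.07-fold lower (log2 −1.05 [−1.32 to −0.79]) and was called. KCNH2 had a log2 ratio of −0.68 [−0.96 to −0.39], a 1.60-fold difference that was short of the call although its interval lay below 0. Lower calls were made for 2.70% of all features and 8.63% of genes with rows, with medians of 0.01 and −0.20. Both comparisons rest on the same NTC library, so a high value in that library alone would lower each of them.

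Directly compared, shHKDC1 stood below shRBBP5 for KCNH2 (log2 −1.05 [−1.52 to −0.58]), a call made for 10.2% of all features and 18.1% of genes with rows. Upper-quartile scaling ended that call (−0.94 [−1.41 to −0.47]). ITPR2 had a ratio of −0.60 [−1.03 to −0.21], not called. The ratio of ITPR2 in shRBBP5 over NTC is larger in size than that of KCNH2, and the direct ratio of KCNH2 larger than that of ITPR2, but the intervals of the 2 genes overlap in each comparison and the difference between the genes was not tested.

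**Figure D2:**
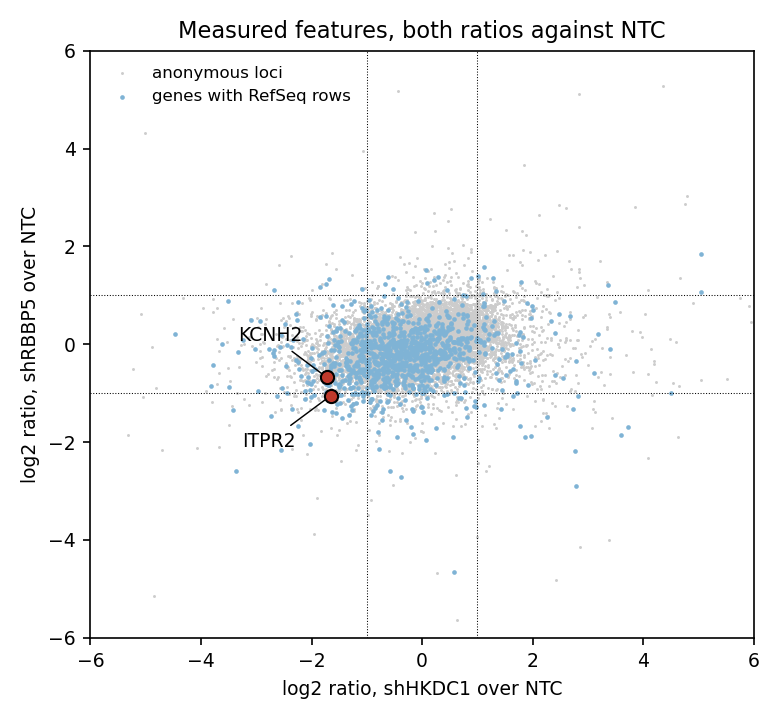
Log2 ratio of shRBBP5 over NTC (vertical axis) against shHKDC1 over NTC (horizontal axis), 1 point for each measured feature, with anonymous loci in grey, genes with RefSeq rows in blue and the 2 channels in red. ITPR2 lies past both dotted 2-fold lines at −1.65 and −1.05, KCNH2 past the shHKDC1 line alone at −1.72 and −0.68. Axes stop at 6 and leave out 31 of 13444 features, and both axes share the NTC library.

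By transcript row, the long KCNH2 form NM_000238.4 was at 4.94 CPM [4.30 to 5.63] in NTC, against 0.900 CPM [0.564 to 1.34] in shHKDC1 and 3.60 CPM [3.04 to 4.25] in shRBBP5. NM_172056.2, with the other end, was at 1.67 CPM [1.31 to 2.10], 1.05 CPM [0.689 to 1.52] and 0.527 CPM [0.326 to 0.805] in the same order. The long form was thus lowest in shHKDC1 and NM_172056.2 lowest in shRBBP5. For NM_172056.2 the shHKDC1 and shRBBP5 levels rest on about 27 and 21 fragments, and their intervals overlap. NM_172057.3, with the other start, had 0 units in NTC and shRBBP5 and 4 units in shHKDC1, and NM_001204798.2 had 0 in all 3 libraries. For a row at 0, the exact interval reached up to 0.0842 CPM in NTC, up to 0.143 in shHKDC1 and 0.0925 in shRBBP5.

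The log2 ratio in shHKDC1 over NTC was −2.45 [−3.16 to −1.85] for the long form and −0.66 [−1.37 to −0.02] for NM_172056.2. In shRBBP5 over NTC the sizes were the other way round, −0.45 [−0.76 to −0.14] for the long form and −1.66 [−2.44 to −0.95] for NM_172056.2. In each of these comparisons the interval of one form does not overlap that of the other. The long form made up 74.8% [69.3 to 79.6] of KCNH2 units in NTC, 45.1% [31.1 to 59.7] in shHKDC1 and 87.3% [81.2 to 91.9] in shRBBP5.

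Such shifts were common in this table. Of 659 other measured genes with units on at least 2 rows and in every library, 45.1% had a shift of the leading row at least as large between shHKDC1 and NTC as the 29.6 percentage points of KCNH2. Between shRBBP5 and NTC, where KCNH2 moved by 12.5 points, 53.1% moved as much or more, and between the knockdowns, where it moved by 42.1 points, 29.7% did. A median gene moved by 23.9, 14.0 and 17.7 points in these comparisons. The other genes were not matched to KCNH2 in level, and counting error in their shares was not taken out. KCNH2, at a mean of 4.24 CPM, was above the median of 2.61 CPM over all measured genes. The units are estimates divided among overlapping transcripts, and how much of a shift comes from that division was not tested. The summed KCNH2 level keeps the direction of the long form in all 3 comparisons, while the direct ratio of NM_172056.2 was opposite (1.00 [0.11 to 1.89]). That ratio sits at the 2-fold line and was not computed with other scalings.

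**Figure D3:**
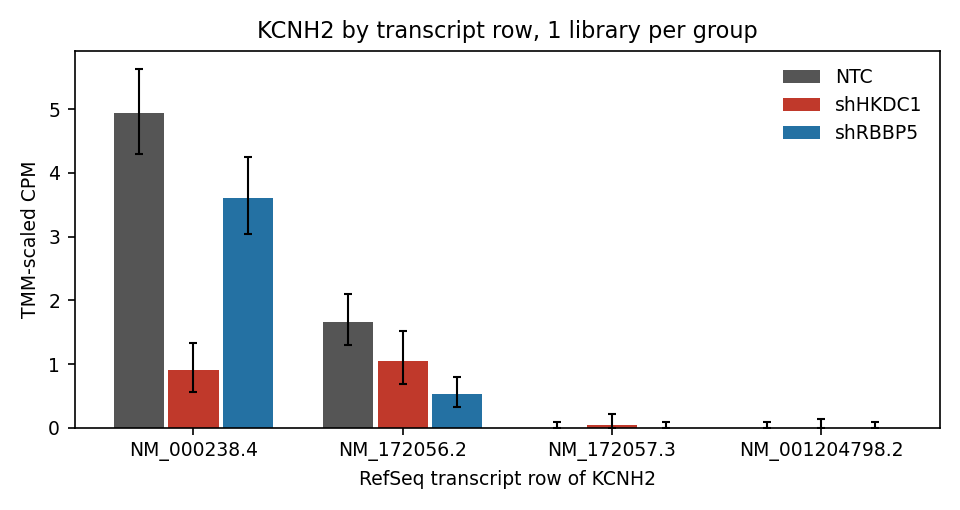
TMM-scaled CPM (vertical axis) of the 4 RefSeq transcript rows of KCNH2 in NTC, shHKDC1 and shRBBP5, with exact 95% Poisson intervals of counting error as lines. The long form is at 4.94 CPM in NTC and 0.900 in shHKDC1, whereas NM_172056.2 is lowest in shRBBP5 at 0.527 CPM, and the last rows are at or near 0.

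The start that RefSeq gives for KCNH2 is shown because H3K4 methylation, the mark that RBBP5 complexes write, gathers at CpG-rich starts as background knowledge. The 250 bases before it lie at chr7:150978322-150978571 on the minus strand (RefSeq, GRCh38.p14), in lower case with a CCAAT box and GC boxes in capitals.
KCNH2: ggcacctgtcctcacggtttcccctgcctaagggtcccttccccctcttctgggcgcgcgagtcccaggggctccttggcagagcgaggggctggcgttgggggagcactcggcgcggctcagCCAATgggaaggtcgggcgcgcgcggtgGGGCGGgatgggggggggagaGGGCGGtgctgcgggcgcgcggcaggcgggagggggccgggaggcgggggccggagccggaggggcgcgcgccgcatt
This window holds 29 CG dinucleotides against a median of 11 over 35116 such windows of RefSeq starts, and 14.1% of windows hold as many or more. Its G and C content is 77.2%, against a median of 58.0%. The GC box GGGCGG, searched on both strands, occurs 2 times and is present in 42.6% of all windows, and CCAAT occurs 1 time and is present in 32.0%. Neither TATAAA (10.7% of windows) nor CACGTG (6.34%) is in it. No mark or factor was measured at this start, and a match is a description of letters. The start sequences used held no window for ITPR2, so the starts of the channels could not be compared. In shRBBP5 over NTC, KCNH2 had a log2 ratio of −0.68 [−0.96 to −0.39] and ITPR2 one of −1.05 [−1.32 to −0.79], with overlapping intervals. A link between the letters of this start and the RBBP5 knockdown was not tested.

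Within the KCNH family, whose members are voltage-gated potassium channels, 7 of 8 genes had rows and only KCNH2 reached a mean of 1 CPM. KCNH4 was at 1.13 CPM in NTC, against 1.09 in shHKDC1 and 0.288 in shRBBP5. KCNH5 was at 0.474, 0.329 and 0.244 CPM. KCNH6 was at 0.388 CPM in NTC and 0.407 in shRBBP5 and listed at 0 in shHKDC1. KCNH1, KCNH7 and KCNH8 did not pass 0.184 CPM in any library.

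Around these channels, 402 genes on 15 lists of calcium signalling and ion channel genes were examined, of which 193 had rows and 20 were measured, ITPR2 and KCNH2 included. Of the other 18, 0 were called higher, 5 lower and 13 neither in shHKDC1 over NTC, with a median log2 ratio of −0.65. Among all genes with rows 8.17% were called higher and 23.4% lower, with a median of −0.40, so 5 of 18 is close to the general share. In shRBBP5 over NTC 1 was higher, 2 lower and 15 neither (median −0.29), where 2.11% of genes with rows were higher and 8.63% lower. In the direct comparison 2 were higher, 6 lower and 10 neither (median −0.14), where 11.0% were higher and 18.1% lower.

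Upstream of ITPR2, PLCG2, a phospholipase C that makes IP3, was the only measured gene of the IP3 production list (9 of 23 with rows). It stood at 8.39 CPM in NTC, against 10.5 in shHKDC1 and 7.77 in shRBBP5 and was not called, unlike ITPR2. P2RY2, a nucleotide receptor that signals through phospholipase C, was at 5.30, 6.34 and 2.99 CPM, and the direct ratio was called higher (1.08 [0.74 to 1.44]) but not with total-count scaling (0.88). MET, the hepatocyte growth factor receptor, was at 6.79, 4.46 and 8.01 CPM, without a call except directly with total-count scaling (−1.05). None of the measured genes belonged to the lists of IP3 removal, IP3 receptor partners, or calcium transfer from the endoplasmic reticulum to mitochondria, and ITPR2 was the only one for release and refilling of that store.

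Downstream and at the plasma membrane, NFATC4, a calcium-regulated transcription factor, was at 4.59 CPM in NTC, against 3.35 in shHKDC1 and 2.61 in shRBBP5, not called. The sodium-calcium exchanger SLC8A2 was called lower in both knockdowns against NTC, as ITPR2 was, at 2.44, 1.09 and 1.20 CPM (log2 −1.15 [−1.83 to −0.56] and −1.02 [−1.54 to −0.52]). The second of these calls was lost with a pseudocount of 5 units (−0.998). The calcium pump ATP2B4 was at 1.66, 1.34 and 1.22 CPM, not called. Of the TRP cation channels, TRPC1 was lower in shHKDC1 than in NTC (−1.08 [−1.55 to −0.61]), though not with upper-quartile scaling (−0.997), and its direct ratio was called with total-count scaling alone (−1.14). TRPV2 was higher in shRBBP5 than in NTC (1.25 [0.66 to 1.88]), at 1.89 against 0.793 CPM. Of the 26 genes on the list of plasma membrane calcium channels 16 had rows, and 0 were measured.

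Among genes tied to KCNH2, ALG10B, a glucosyltransferase also described as a hERG regulator, stood at 4.59 CPM in NTC, against 4.55 in shHKDC1 and 2.95 in shRBBP5, not called. KCNMB4, an auxiliary subunit of the calcium-activated BK potassium channel, was lower in shHKDC1 than in NTC (−2.56 [−3.64 to −1.59]), at 0.377 against 2.25 CPM, and stood at 2.56 CPM in shRBBP5. KCNMB3, of the same subunit family, was not called in any comparison. KCNA7, KCND1 and KCNAB3, voltage-gated channels or their subunit, were not called against NTC. With total-count scaling KCND1 was called lower in shHKDC1 over NTC (−1.23) and KCNA7 lower in shRBBP5 over NTC (−1.02). In the direct comparison KCNA7 was higher in shHKDC1 (1.16 [0.43 to 2.02], and 0.95 with total-count scaling, short of a call) and KCND1 lower (−1.87 [−2.94 to −1.02]).

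Of other channels, the sodium channel subunit SCNN1D was lower in shHKDC1 than in NTC (−2.38 [−3.23 to −1.64]) and at 3.12 CPM in shRBBP5 against 3.24 in NTC. ANO5, of the anoctamin family, was called lower in shRBBP5 (−1.44 [−1.73 to −1.17]) and had −0.93 [−1.23 to −0.65] in shHKDC1, a call with total-count scaling (−1.21). HCN3, a hyperpolarisation-activated channel, was at 7.81, 4.25 and 9.83 CPM in NTC, shHKDC1 and shRBBP5 and was called directly (−1.21 [−1.53 to −0.90]), and in shHKDC1 over NTC with total-count scaling alone (−1.15, against −0.88). CNGB1, a subunit of cyclic nucleotide-gated channels, was at 1.01, 0.494 and 1.64 CPM. Its call in shHKDC1 over NTC (−1.02) was lost with DESeq2 size factors (−0.994), upper-quartile scaling (−0.944) and a pseudocount of 5 units (−0.938). Its direct ratio was called lower (−1.72 [−2.70 to −0.85]) and stayed so in each alternative. Directly, KCNMB4 (−2.75 [−3.83 to −1.79]), SCNN1D (−2.32 [−3.18 to −1.57]) and TRPV2 (−1.16 [−1.92 to −0.46]) were called lower too. As given above, P2RY2 and KCNA7 were called higher in that comparison.

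**Figure D4:**
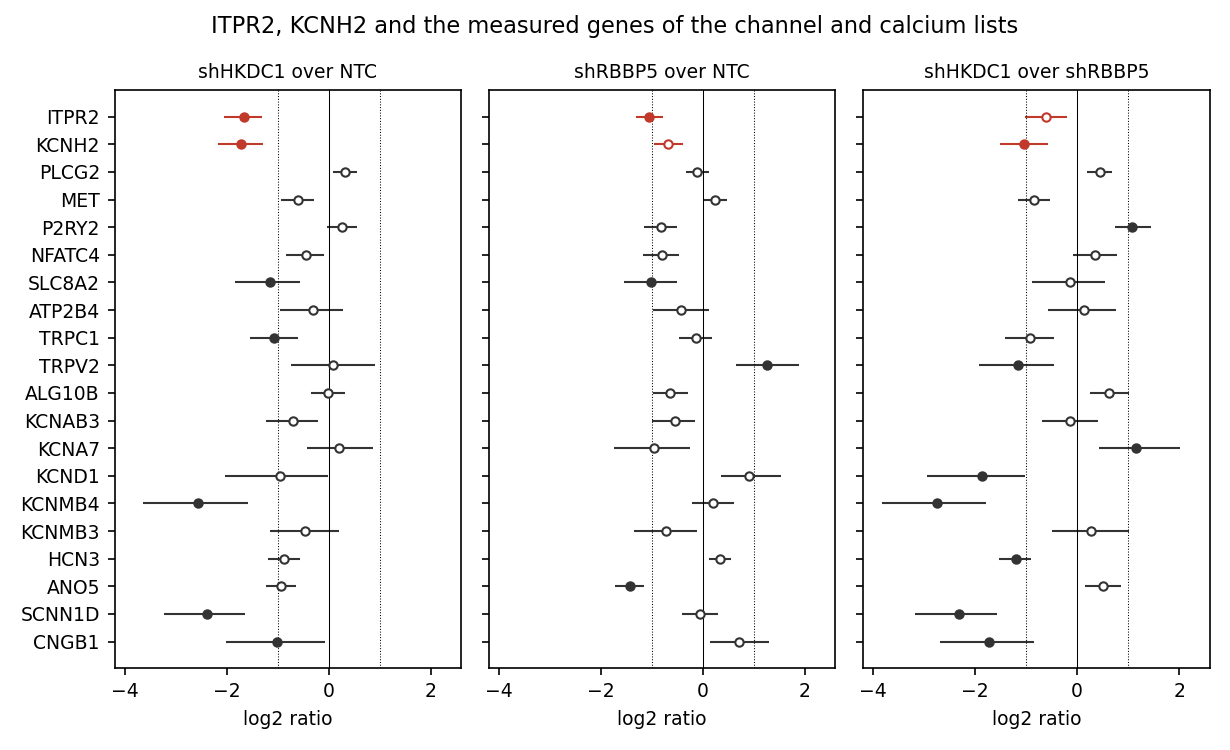
Log2 ratios (horizontal axes) of ITPR2, KCNH2 (red) and the 18 other measured list genes (black) in the 3 comparisons, with exact 95% intervals of counting error, filled points for calls and dotted lines at 2-fold. Both red points are filled for shHKDC1 over NTC, where 5 of the 18 other genes are called lower and 0 higher.

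The genes whose pattern was most like each channel were ranked by Euclidean distance between centred log2 levels over the 3 libraries, among 983 other protein-coding genes with rows. With only 3 points a profile is fixed by its ratios, so this is a list of near values. For ITPR2 the nearest were FBXO43 (distance 0.11), TEX15 (0.11), USF3 (0.15), UNC13A (0.16) and PIK3R1 (0.16), where the median gene was at 1.07. FBXO43 stood at 6.89 CPM in NTC, against 2.07 in shHKDC1 and 3.51 in shRBBP5. For KCNH2 they were PPP1R3E (0.05), NBEA (0.05), CDH1 (0.07), PER3 (0.08) and ARHGAP11B (0.10), with a median of 1.08. PPP1R3E stood at 6.31 CPM in NTC, against 1.87 in shHKDC1 and 4.06 in shRBBP5. The channels were at 0.34 from each other, so KCNH2 was the gene of order 35 from ITPR2 and ITPR2 that of order 50 from KCNH2.

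Facts of the whole series bear on these values as follows. Totals were 161750310, 115556160 and 154533913 units in NTC, shHKDC1 and shRBBP5, and the shHKDC1 library with the lowest levels of both channels was the shallowest. HKDC1 and RBBP5 had no rows, so the knockdowns were not checked here. Of 20 hepatocyte markers 2 had rows, FGB and F5, and their summed level was 5.90 CPM in NTC, against 1.59 in shHKDC1 and 5.40 in shRBBP5, so it was low in shHKDC1 as the channels were. ALB and most other defining hepatocyte markers were among those without rows, and the label could not be checked further. Markers of other cell types summed to higher levels in shHKDC1 than in NTC, though for fibroblast and endothelial markers a single gene made that direction. In NTC, shHKDC1 and shRBBP5, fibroblast markers (6 of 8 with rows, 1 at 0 throughout) summed to 0.953, 1.58 and 1.86 CPM. The single gene PDGFRB made up 0.605, 1.48 and 1.56 CPM of these sums, and the rest, at low levels, summed to less in shHKDC1 than in NTC. Leukocyte markers (6 of 8, 3 at 0) summed to 0.576, 0.968 and 0.884 CPM. Endothelial markers (6 of 6, 1 at 0) summed to 0.160, 0.803 and 0.188 CPM, of which VWF made up 0.707 CPM in shHKDC1 and 0.0171 in NTC. Without VWF their low sum was likewise less in shHKDC1 than in NTC. Cardiac muscle markers (7 of 8, 0 at 0) summed to 0.297, 0.929 and 0.501 CPM. ITPR2 has a long transcript, and the 132 other measured genes of at least 8000 bases had a median log2 ratio of −0.62 in shHKDC1 over NTC against −0.34 for 790 shorter ones. In shRBBP5 over NTC these medians were −0.36 and −0.17. Lengths were those of the GENCODE transcript paired with each gene's leading row, and were found for 923 of the 1089 measured genes. The part of depth, the markers or transcript length in the ratios of the channels was not tested.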

How the data were processed

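RNA-seq of 3 PLC libraries was used. The submitters' processing notes list HISAT2 2.2.1, StringTie 1.3.4, DESeq2 1.28.1 and hg19, with no role for each. The table the authors deposited holds expected counts (estimated counts) per assembled locus or RefSeq transcript, not scaled to depth or length; its annotation, strand setting and counting tool were not given in the sources used here. Columns named NTC, shHD and shRB were read as NTC, shHKDC1 and shRBBP5 by their abbreviations. RefSeq accessions were matched to symbols without version in a GRCh38.p14 RefSeq table (27357 of 27403 rows), and rows were summed per gene. The table's own coordinates were not used.

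The 43704 rows gave 16301 loci, 12034 genes and 46 unmatched rows. TMM factors (edgeR 4.0.16, R 4.3.3) over all of these were 1.083, 0.894 and 1.032. Ratios used a pseudocount of 0.5 units. Low values piled up at 4 units (525 rows of NTC, against 332 at 3 and 235 at 5), so 1 fragment was taken as 4 units, assumed once the values had been seen; this gives 40437578, 28889040 and 38633478 fragments. Features averaging at least 1 CPM were measured. Ratio intervals are exact 95% Clopper-Pearson intervals of a conditional binomial, level intervals exact Poisson, and shares exact binomial; without molecular identifiers reads are no independent molecules, so all cover counting error at most. The calling step was tested on simulated data. Other steps used Python 3.11.15, NumPy 2.4.6, SciPy 1.17.1, pandas 2.3.3 and Matplotlib 3.10.9.

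The genes and lists were chosen with earlier results of these data known. Named genes were both channels, at most 6 measured members of each list by level, the KCNH family and the 5 nearest patterns per channel. Alternatives were total-count, DESeq2 1.42.0 and upper-quartile scaling, a pseudocount of 5, units as reads, the leading row alone, the 20 most abundant rows left out, and other CPM filters.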

Additional observations from a re-analysis of the deposited data

How the results depend on the processing

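With 3 scalings, a pseudocount of 5 units, units taken as reads and the 20 most abundant rows left out, ITPR2 kept its side of the call in all 3 comparisons, from −1.93 to −1.57 in shHKDC1 over NTC, −1.12 to −1.04 in shRBBP5 over NTC and −0.81 to −0.49 directly. KCNH2 kept its side against NTC and lost the direct call with upper quartiles alone (−0.936). The leading KCNH2 row alone gave −2.45, −0.45 and −2.00. Called features numbered 2694, 594 and 2388, and went to 1788, 280 and 1495 with a mean CPM of at least 5, which tests fewer features. With no CPM filter, which tests more, they numbered 3964, 1140 and 3639. Of all calls, 39.7% were higher in shHKDC1 over NTC and 18.4% with total counts, and directly 42.8% were higher, 25.6% with total counts and 53.5% with upper quartiles. Of 504 other values for named genes, 487 kept their side, 9 gained and 8 lost a call. No paired analysis was possible because each group is 1 library, which also leaves no replicate to leave out. About 72 fragments of ITPR2 and 52 of KCNH2 in shHKDC1 limit the precision.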

Other observations

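The protein-coding neighbours of the channels in the RefSeq table, 3 on each side, were looked up after the values of the channels were seen. On one side of ITPR2, SSPN, a muscle membrane protein gene, was at 0.261 CPM or less in each library. BHLHE41, a circadian transcription repressor and the second neighbour, was at 0.417 CPM in NTC, against 2.66 in shHKDC1 and 0.627 in shRBBP5, a log2 ratio of 2.67 [1.94 to 3.54] in shHKDC1 over NTC, which is opposite in sign to that of ITPR2. RASSF8, the third, was at 3.80, 3.57 and 3.14 CPM and was not called. AOC1, TMEM176A and TMEM176B, on one side of KCNH2, were listed at 0 in all 3 libraries. The 3 neighbours on the other side of each channel had no rows.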
